A study of Mus musculus with 35 samples.

Results

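Immediate early genes and the inducible 70 kDa heat shock genes were examined in myeloid-derived suppressor cells (MDSC) sorted from mice with pancreatic tumors, and in whole tumor tissue. The set held 10 genes, chosen by name: the AP-1 family genes Fos, Fosb, Jun, Junb and Atf3, the zinc-finger factor gene Egr1, the nuclear protein gene Ier2, the phosphatase gene Dusp1 and the heat shock protein genes Hspa1a and Hspa1b. Each matched 1 row of the 53379 genes counted. The members and the wider lists below were chosen with earlier results of these data known. Their call counts beside the shares of all genes therefore describe a chosen set. The tumors were orthotopic grafts of T110299, a single cell line derived from a pancreatic tumor of a genetically engineered Ptf1a-Cre mouse, in the pancreas of syngeneic female C57BL/6 mice. Mice received poly(I:C)-PEI, a double-stranded RNA mimic complexed for uptake into the cytosol (50 µg intravenously on days 18 and 20), or served as controls. The controls are labelled untreated, and the treatment note of the labels names glucose as the control. The paper sorted MDSC the day after the second dose, so changes that rose and fell before then were not measured.

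PMN-MDSC (CD11b+ Ly6Clo Ly6G+) and M-MDSC (CD11b+ Ly6Chi Ly6G-) were sorted from spleen and tumor of both treatment groups, with 4 libraries in each group except PMN-MDSC of treated spleens and M-MDSC of treated tumors, with 3 each. Another 4 libraries came from bulk tumor of untreated mice. All mice carried a tumor, so a resting spleen of a tumor-free mouse was not part of the comparison. The 3 kinds of material also reached lysis by different routes. Spleens were passed through a strainer and red cells were lysed. Tumors were minced and dissociated with a dissociation kit on an automated dissociator, and both suspensions then went through magnetic enrichment, antibody staining and flow sorting. For bulk tumor the paper's methods give lysis of tumor tissue and name no dissociation or sorting. Handling and organ therefore changed together in every tumor and spleen comparison below, and handling and cell makeup in every comparison with bulk tumor, and neither pair can be told apart.

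Immediate early genes are transcribed within minutes of a stimulus from factors already present in the cell, such as CREB, SRF with its partners and preformed AP-1, and their short-lived transcripts fall again soon after. Fos, Fosb, Jun, Junb and Atf3 encode leucine-zipper proteins that pair with one another and bind AP-1 or CRE sites. Dusp1 encodes a phosphatase that switches off the MAP kinases that induce it. Hspa1a and Hspa1b encode the stress-induced HSP70, a chaperone whose genes are switched on by heat shock factor 1 when proteins misfold. In freshly isolated tissue cells both groups are well known to respond to tissue dissociation as well as to cytokines, growth factors and stress within the tissue.

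Upstream sequences of 4 members are shown first, as examples that hold letters of the CREB and heat shock factor sites named above. RefSeq promoters (GRCm38.p6) were at hand for 8 of the 10 members, all but Egr1 and Ier2, and of these 4 the 250 bases before the start site are printed 5′ to 3′ on the gene's strand. Capitals mark the core TGACG of the cAMP response element (CRE) on either strand in Fos (chr12:85473640-85473889, plus strand) and Dusp1 (chr17:26508473-26508722, minus strand). In Hspa1a (chr17:34972157-34972406, minus strand) and Hspa1b (chr17:34959239-34959488, minus strand) they mark the heat shock element core GAANNTTC.
Fos: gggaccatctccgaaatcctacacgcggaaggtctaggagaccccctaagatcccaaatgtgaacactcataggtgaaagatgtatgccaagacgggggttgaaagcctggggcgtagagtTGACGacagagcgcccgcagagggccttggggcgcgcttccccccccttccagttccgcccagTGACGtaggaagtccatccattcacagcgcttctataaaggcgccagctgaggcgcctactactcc
Dusp1: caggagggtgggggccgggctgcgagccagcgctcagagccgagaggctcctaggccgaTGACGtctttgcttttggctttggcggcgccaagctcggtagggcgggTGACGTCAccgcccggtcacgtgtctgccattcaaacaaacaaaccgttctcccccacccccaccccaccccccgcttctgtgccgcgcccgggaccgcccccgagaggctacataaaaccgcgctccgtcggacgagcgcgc
Hspa1a: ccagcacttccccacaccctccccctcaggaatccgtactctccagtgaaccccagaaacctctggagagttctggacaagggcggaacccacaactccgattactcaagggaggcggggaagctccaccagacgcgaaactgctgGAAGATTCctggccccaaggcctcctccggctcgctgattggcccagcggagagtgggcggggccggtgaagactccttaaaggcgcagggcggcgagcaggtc
Hspa1b: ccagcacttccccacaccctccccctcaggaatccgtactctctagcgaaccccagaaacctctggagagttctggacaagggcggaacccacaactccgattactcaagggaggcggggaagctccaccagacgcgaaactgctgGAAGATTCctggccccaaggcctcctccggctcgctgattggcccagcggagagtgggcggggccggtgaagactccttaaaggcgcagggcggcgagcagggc

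The core TGACG stood in 5 of the 8 windows (Fos, Fosb, Junb, Atf3 and Dusp1) and in 17.8% of the 32851 promoters of the same length. In Dusp1 the capitals include the full palindrome TGACGTCA from 143 to 136 bases before the start, which contains 2 of the core matches and occurs in 1.55% of promoters. The core GAANNTTC was found in Jun, Hspa1a and Hspa1b and in 6.69% of promoters. The AP-1 site TGANTCA (6.75% of promoters) and the CArG box, the binding site of SRF (1.47%), had no match in these 8 windows. A match describes letters only.

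The Hspa1a and Hspa1b windows were identical at 247 of 250 bases, and the heat shock element core lay at the same 104 to 97 bases before the start in both. Their transcripts also resemble each other: 58.8% of the 50-base words of the Hspa1a transcript occur in Hspa1b, and 62.3% the other way. Fragments from the shared stretches could be assigned to either gene or dropped. The division between the 2 genes is therefore uncertain, and their sum is given beside them.

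Sorted libraries held 793070 to 4357105 counted fragments and bulk tumor libraries 3771590 to 8886115. A library of M-MDSC from a treated tumor with 10 counts was left out. Levels are CPM, counts scaled to the library's own total. The neutrophil marker list (10 genes, among them S100a8, Csf3r and Ly6g) summed to 20397 to 33107 CPM in PMN-MDSC of untreated spleens, 2680.1 to 6172 in M-MDSC of the same organ, 1478 to 4591 in PMN-MDSC of untreated tumors and 229 to 610.0 in tumor M-MDSC. The monocyte and macrophage list (10 genes, among them Csf1r, C1qa and Apoe) summed to 984 to 2438, 3837 to 4441, 10866 to 14871 and 6898 to 11659.7 CPM in the same order. Cells sorted from tumor as PMN-MDSC thus carried monocyte and macrophage markers at summed levels as high as the cells sorted as M-MDSC, with all 10 genes of both lists detected, and the label PMN-MDSC is used below for the gate. Single genes differed. Adgre1, C1qa, C1qb and Apoe were higher in tumor PMN-MDSC without overlap (Apoe 6929 to 9895 against 1774 to 6123 CPM). Ly6c2 (1.90 to 11.2 against 40.3 to 147 CPM) and Ccr2 (312 to 458 against 1103 to 1462) were lower without overlap, and the others overlapped. Mitochondrial genes held 2.63 to 5.27% of counts in PMN-MDSC of untreated spleens and 7.17 to 15.3% in those of untreated tumors. For M-MDSC the ranges were 7.71 to 9.25% and 7.79 to 10.9%. Their part in the results was not tested.

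Together the 10 genes made up 0.947 to 1.32% of all counts in PMN-MDSC and 1.11 to 1.27% in M-MDSC sorted from untreated tumors. In bulk tumor the share was 0.0212 to 0.0242%, and in such bulk samples fewer cells of a type and less RNA per cell cannot be told apart. Spleen cells lay between, at 0.169 to 0.335% in PMN-MDSC and 0.0395 to 0.0643% in M-MDSC of untreated mice. For 7 of the 10 genes every one of the 15 sorted tumor libraries, treated or not, was above every one of the 15 sorted spleen libraries, a pattern found in 1.86% of the 9794 genes whose mean count reached 25. The exceptions were Junb, Ier2 and Dusp1. Every sorted tumor library was above every bulk library for all 10 genes and for 21.6% of all genes.

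**Figure D1:**
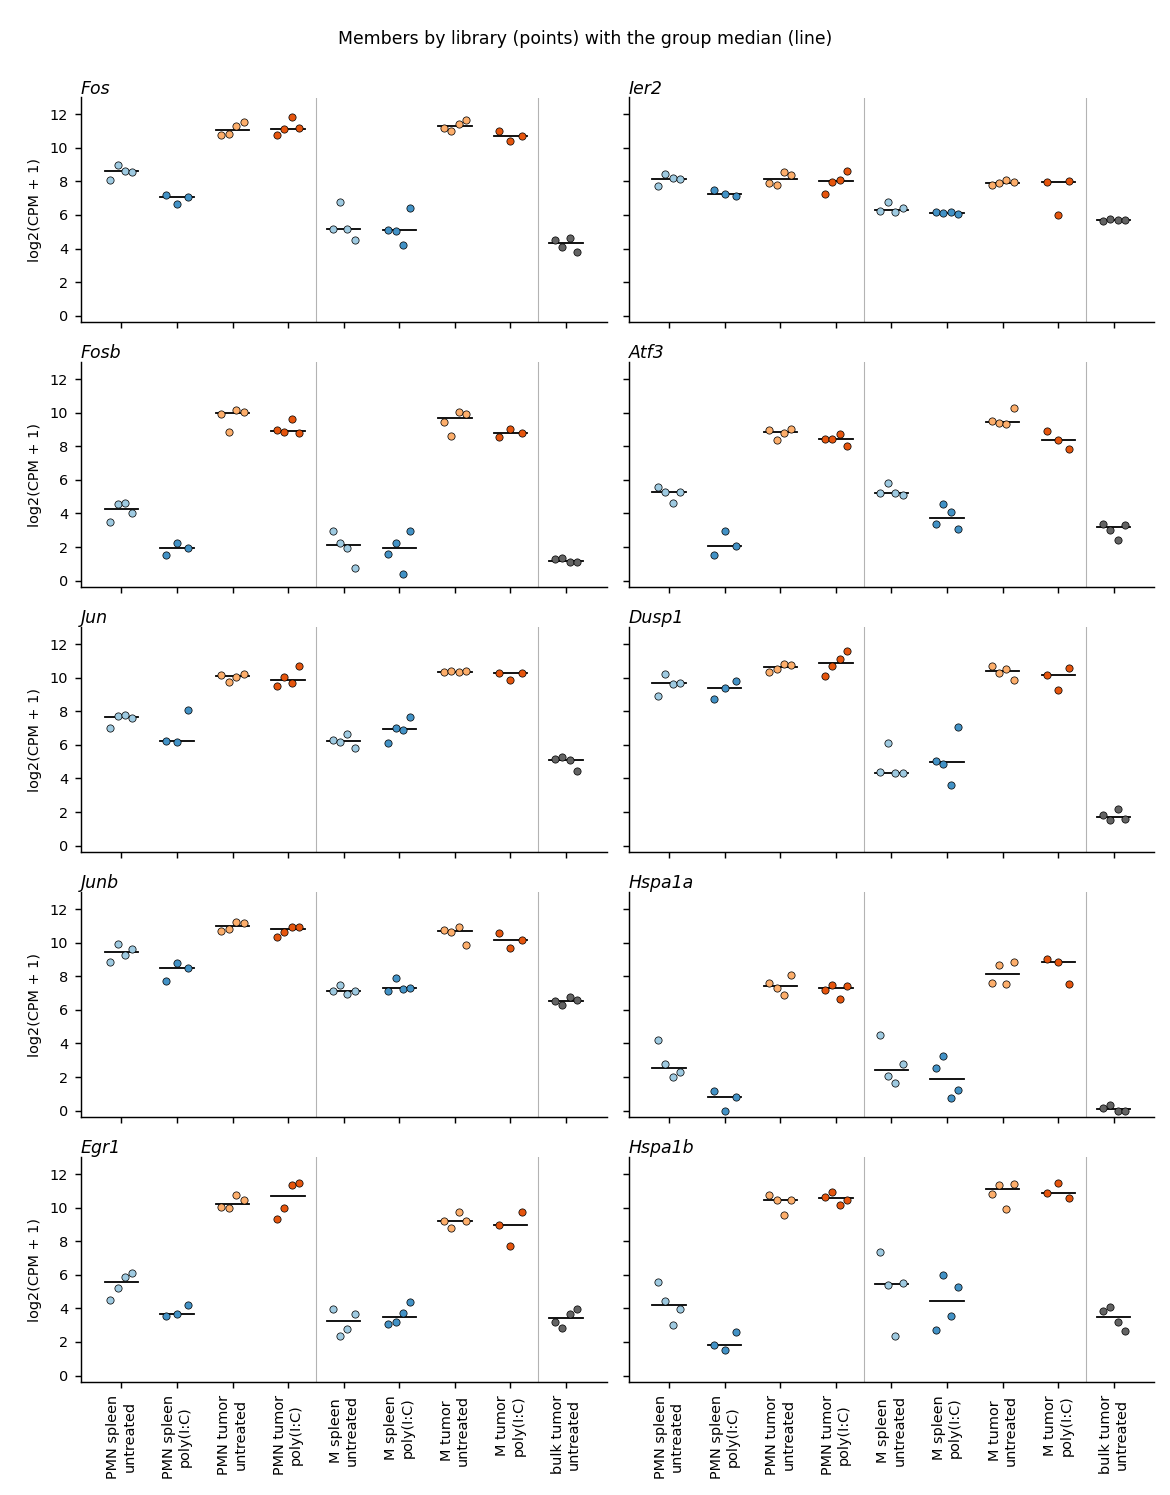
Level of each gene in every library, as log2(CPM + 1) on the vertical axis, for the 9 groups on the horizontal axis. Points are libraries and short lines are group medians. Tumor cells (orange) stand above spleen cells (blue) in most panels, with overlap in the Junb and Ier2 panels and on the PMN-MDSC side of the Dusp1 panel, and bulk tumor (grey) is lowest or among the lowest.

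Fos, the founding partner of AP-1 (chr12:85473890-85477273, GRCm38), was the most abundant immediate early transcript per length in tumor PMN-MDSC, with a median of 927 CPM per kilobase of exon (FPKM). In PMN-MDSC of untreated tumors it stood at 1773, 1819.9, 2538 and 3012 CPM, and in M-MDSC of untreated tumors at 2284, 2064, 2725 and 3167. The 2 cell types overlapped there. Spleen PMN-MDSC held 265, 508, 400.1 and 377 CPM and spleen M-MDSC 34.3, 108, 34.3 and 21.9, with 1 M-MDSC library well above its 3 companions. Bulk tumor held 21.8, 16.2, 23.7 and 12.9 CPM, the lowest median level of all groups. After poly(I:C) the values were 1757, 2195, 3641 and 2289.9 CPM in tumor PMN-MDSC, 2013, 1331 and 1646 in tumor M-MDSC, 145, 99.9 and 133 in spleen PMN-MDSC and 33.9, 31.7, 17.6 and 84.5 in spleen M-MDSC. The 4 sorted tumor groups overlapped their neighbours in the order of medians and stood clear of PMN-MDSC of untreated spleens, which stood clear of the remaining groups.

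Fosb encodes a Fos relative that is barely transcribed in resting cells, and it gave the widest contrast of the AP-1 genes. Tumor PMN-MDSC of untreated mice held 955, 463, 1134 and 1044 CPM and tumor M-MDSC 705, 392, 1057 and 981. Spleen PMN-MDSC held 10.1, 22.4, 24.1 and 15.4 CPM. In spleen M-MDSC the level was 6.86, 3.72, 2.90 and 0.714 CPM, from 13, 8, 7 and 3 counts, and in bulk tumor 1.45, 1.59, 1.13 and 1.14. The spleen M-MDSC values thus rest on few counts. Every tumor library was above every spleen and bulk library. Treated tumors gave 495, 461, 802 and 449 CPM in PMN-MDSC and 373, 529 and 438 in M-MDSC.

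Jun (chr4:95049034-95052222) and Junb (chr8:84974484-84978718) supply the other side of the AP-1 dimer, Junb as the weaker activator. Jun was very even in M-MDSC of untreated tumors, at 1283, 1338, 1306 and 1357 CPM, and held 1143, 848, 1058 and 1188 in PMN-MDSC. In spleen it stood at 128, 208, 223 and 196 CPM in PMN-MDSC and 78.1, 71.1, 98.1 and 54.5 in M-MDSC. Junb was high everywhere in PMN-MDSC, with 1664, 1779.8, 2413 and 2282 CPM in tumor and 469.8, 964, 612 and 775 in spleen. M-MDSC showed a wider gap, from 141, 179.8, 122 and 138 CPM in spleen to 1733, 1597, 1963 and 946 in tumor. Bulk tumor held 34.5, 37.6, 32.6 and 20.6 CPM of Jun and 90.1, 75.8, 106 and 94.9 of Junb, and per length Junb was the most abundant member there, with a median of 40.2 FPKM.

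Atf3 encodes a stress-induced AP-1 and CRE-binding factor that represses many cytokine genes. It was higher in tumor M-MDSC, at 715, 683, 639.7 and 1239 CPM, than in tumor PMN-MDSC, at 494, 333, 450.0 and 516, without overlap. That separation was found for 2 of the 10 members, Atf3 and Jun, and for 10.8% of all genes, and neither member was called in the test below. Spleen cells held 47.8, 37.4, 23.7 and 37.9 CPM (PMN-MDSC) and 36.9, 55.3, 36.4 and 34.0 (M-MDSC), so the cell types overlapped there. Treated spleens gave 1.92, 6.68 and 3.24 CPM in PMN-MDSC, from 3, 18 and 9 counts, and 9.47, 22.7, 16.2 and 7.52 in M-MDSC, below all untreated libraries of the same cell type.

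Egr1, a growth-factor and MAP-kinase-induced transcription factor gene, was the member with the smallest adjusted p between the cell types within the tumor. PMN-MDSC of untreated tumors held 1040.2, 1005, 1700.0 and 1411 CPM and M-MDSC 601, 447, 859 and 585. In spleen the levels were 21.5, 36.4, 57.6 and 69.0 CPM in PMN-MDSC and 14.8, 4.18, 5.79 and 11.9 in M-MDSC. In both organs all PMN-MDSC libraries of untreated mice were above all M-MDSC libraries, as for 18.8% of all genes in spleen and 8.88% in tumor. Bulk tumor, at 8.06, 6.10, 11.7 and 14.3 CPM, overlapped spleen M-MDSC.

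Ier2, whose product is a small nuclear protein, differed least between materials. Its levels were 207, 345, 289 and 285 CPM in PMN-MDSC of untreated spleens and 236, 216, 373 and 336 in those of untreated tumors, which overlapped. Untreated M-MDSC separated by organ, with 73.3, 109.6, 70.4 and 83.6 CPM in spleen and 221, 237, 272 and 246 in tumor. Bulk tumor held 48.6, 53.6, 50.4 and 51.6 CPM. A single M-MDSC library of a treated tumor stood at 62.4 CPM against 250.3 and 260.1 in its companions.

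Dusp1 (chr17:26505590-26562128), the MAP kinase phosphatase, had a different pattern in each cell type. In PMN-MDSC it was abundant in both organs, with 479, 1205, 798 and 834 CPM in spleen and 1291, 1442, 1814 and 1722 in tumor. In M-MDSC it went from 19.5, 66.9, 19.04 and 18.8 CPM in spleen to 1669, 1261, 1499.7 and 946 in tumor. Bulk tumor contained 2.51, 1.86, 3.49 and 2.06 CPM, from 19, 7, 31 and 18 counts. Spleen M-MDSC of treated mice ranged from 11.1 to 135 CPM, the widest spread of any Dusp1 group in proportion to its mean.

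Hspa1b (chr17:34956436-34959238) had the higher level of the HSP70 pair per length, with a median of 503 FPKM in tumor PMN-MDSC of untreated mice against 59.1 for Hspa1a. It reached 1801, 2635, 964 and 2750.1 CPM in tumor M-MDSC and 1706, 1413, 770.5 and 1409 in tumor PMN-MDSC of untreated mice. Spleen M-MDSC held 161, 40.9, 4.14 and 44.8 CPM and spleen PMN-MDSC 47.0, 20.4, 7.11 and 14.4, a wide spread within both groups. Bulk tumor held 13.5, 16.2, 7.99 and 5.38 CPM and treated spleen PMN-MDSC 2.56, 1.86 and 5.04. Hspa1a (chr17:34969190-34972156) followed at lower values, with 191, 402, 183 and 461 CPM in tumor M-MDSC and 197, 154, 119 and 267 in tumor PMN-MDSC. In bulk tumor Hspa1a was counted 1, 1, 0 and 0 times and in treated spleen PMN-MDSC 2, 0 and 2 times, at or below 3 counts in every library. The sum of both genes ran from 1146 to 3212 CPM in untreated tumor M-MDSC, 889.9 to 1903 in tumor PMN-MDSC, 6.21 to 184 in spleen M-MDSC, 10.2 to 64.7 in spleen PMN-MDSC to 5.38 to 16.4 in bulk. Counts of Hspa1b exceeded those of Hspa1a 5.27 to 9.18 times in untreated tumor PMN-MDSC and 5.28 to 9.41 times in tumor M-MDSC.

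The first comparison asked how far the cells of one gate differed between tumor and spleen. In untreated PMN-MDSC 7 of the 10 genes were higher in tumor, and in untreated M-MDSC 9 of 10. The test was edgeR's quasi-likelihood test over every gene whose mean count in the libraries compared reached 25, with a call at a Benjamini-Hochberg adjusted p below 0.001 and a change of at least 2-fold. The same call was reached by 9.16% of all genes tested in PMN-MDSC and 6.35% in M-MDSC. The members' median log2 fold change was 2.94 for the former cells and 5.44 for the latter, beside 0.01 and 0.02 over all genes.

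Among the AP-1 genes of PMN-MDSC, Fosb was higher in tumor by a log2 fold change of 5.50 ± 0.40 (SE, adjusted p = 4.56e-06), Atf3 by 3.48 ± 0.24 (SE, adjusted p = 3.62e-06), Fos by 2.40 ± 0.30 (SE, adjusted p = 8.52e-05) and Jun by 2.34 ± 0.24 (SE, adjusted p = 2.9e-05). Egr1 was 25.4-fold higher, at 4.67 ± 0.38 (SE, adjusted p = 8.38e-06). Hspa1b had the largest estimate of the 10 genes, 5.77 ± 0.55 (SE, adjusted p = 2.07e-05), with 4.43 ± 0.50 (SE, adjusted p = 4.87e-05) for Hspa1a. The summed row of both gave 5.54 (adjusted p = 2.57e-05). Junb missed the threshold at 1.36 ± 0.28 (SE, adjusted p = 0.00215), Dusp1 at 0.74 ± 0.31 (SE, adjusted p = 0.0557) and Ier2 at -0.12 ± 0.25 (SE, adjusted p = 0.708). Junb passed with DESeq2 (adjusted p = 1.46e-05), and the Ier2 estimate turned to 0.06 when libraries were scaled by totals alone.

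In M-MDSC every immediate early member passed. Fosb was higher in tumor by 8.23 ± 0.54 (SE, adjusted p = 2.14e-06), Egr1 by 6.33 ± 0.34 (SE, adjusted p = 1.58e-07), Fos by 5.96 ± 0.53 (SE, adjusted p = 2.79e-05) and Dusp1 by 5.70 ± 0.47 (SE, adjusted p = 1.5e-05). Atf3 followed at 4.60 ± 0.28 (SE, adjusted p = 4.14e-07), Jun at 4.39 ± 0.19 (SE, adjusted p = 2.8e-08) and Junb at 3.68 ± 0.22 (SE, adjusted p = 3.31e-07). Ier2 had the smallest change, 3.46-fold, at 1.79 ± 0.16 (SE, adjusted p = 6.05e-06). The HSP70 genes had larger standard errors, with 5.57 ± 0.67 (SE, adjusted p = 0.000338) for Hspa1a and 5.31 ± 0.95 (SE, adjusted p = 0.00438) for Hspa1b, which missed the threshold. Leaving out the spleen M-MDSC library with the highest heat shock level brought Hspa1b past it (adjusted p = 0.000656), while Hspa1a lost its call without spleen library 2 (adjusted p = 0.00171), spleen library 4 (0.00197) or tumor library 4 (0.00223). Fosb and Hspa1a had a mean under 25 counts in spleen, so they could be tested only through their tumor level. Scaling by totals alone moved the calls over all genes in M-MDSC from 527 higher and 187 lower to 398 and 342 and the median of all genes by -0.26.

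After poly(I:C), 6 of 10 members were called higher in tumor PMN-MDSC (8.39% of all genes) and 1 of 10, Fosb at 7.23 ± 0.59 (SE, adjusted p = 0.000947), in tumor M-MDSC (0.188%). Of these calls, Fosb, Atf3, Hspa1a and Hspa1b in PMN-MDSC and Fosb in M-MDSC passed the filter on low counts only through the tumor libraries. The M-MDSC median was 5.03, and 9 of 10 passed at an adjusted p below 0.05 and 2-fold, where 4.7% of all genes did. DESeq2 called 9 members at the stricter rule (4.55% of all genes in either direction) and a single fit over all 9 groups called 9 (4.4%), and leaving out any 1 of the 7 libraries gave 0 to 2. Fos stood at 5.41 ± 0.53 (SE, adjusted p = 0.00175) and Dusp1 at 4.50 ± 0.80 (SE, adjusted p = 0.0163). In PMN-MDSC the called genes were Fosb at 7.10 ± 0.41 (SE, adjusted p = 4.44e-05), Egr1 at 6.70 ± 0.74 (SE, adjusted p = 0.000248), Atf3 at 5.91 ± 0.43 (SE, adjusted p = 0.000103), Fos at 3.89 ± 0.38 (SE, adjusted p = 0.000161), Hspa1b at 8.45 ± 0.45 (SE, adjusted p = 3.64e-05) and Hspa1a. Without treated spleen library 1, 2 or 3 Egr1 lost its call (adjusted p = 0.00104, 0.00206 and 0.0017), as did Fos without library 2 or 3 (0.00141 and 0.00124).

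For Hspa1a in PMN-MDSC of treated mice a fitted fold rests on 4 spleen counts in all 3 libraries. The CPM ratio was 264, with an exact 95% interval of 103 to 971 that covers counting error only. Hspa1a in M-MDSC of treated mice also passed the filter on low counts only through the tumor libraries. Scaling by totals alone moved the calls over all genes in treated PMN-MDSC from 674 higher and 371 lower to 920 and 198 and the median of all genes by 0.45.

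**Figure D2:**
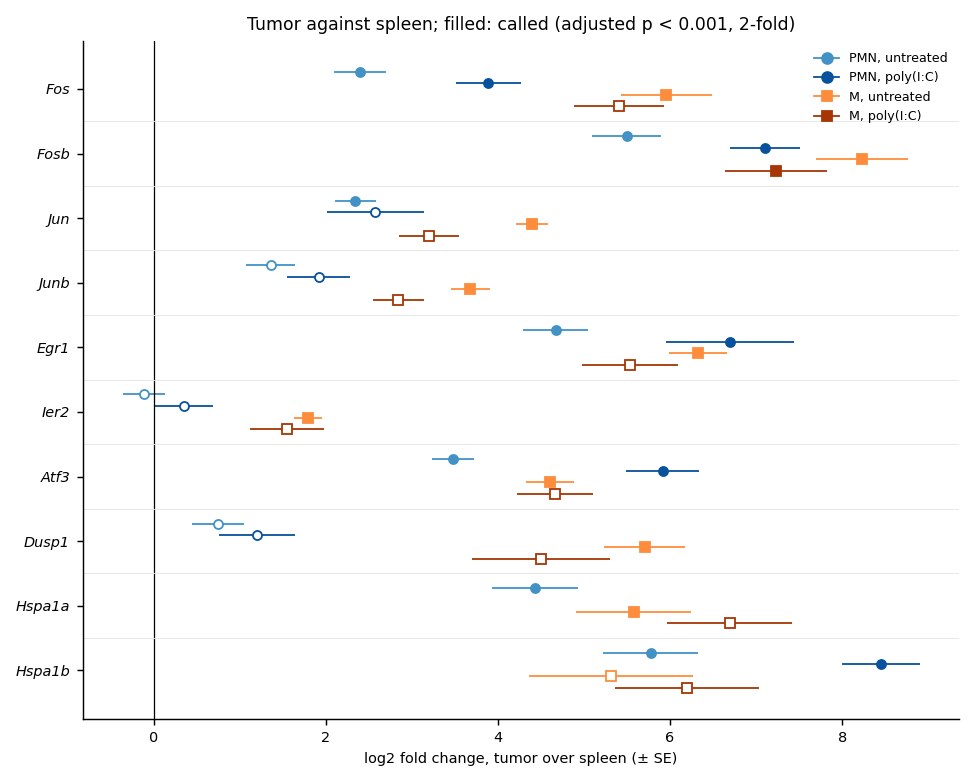
Log2 fold change, tumor over spleen, on the horizontal axis for each gene and the 4 comparisons, with bars of 1 SE. Filled symbols passed the call of adjusted p below 0.001 and 2-fold. Hspa1a of treated PMN-MDSC is left out because its spleen libraries hold at most 2 counts each. Nearly all points lie to the right of 0, and Ier2 in PMN-MDSC stands at about 0.

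Other immediate early genes, a list of 44 chosen by name with earlier results of these data known, were called in both cell types, mostly as higher in tumor. In untreated PMN-MDSC 18 of 37 tested were higher in tumor and 2 lower, with a median log2 fold change of 1.77, where 12.5% of all genes were lower. In M-MDSC 30 of 38 were higher and 1 lower, with a median of 3.42, and 2.25% of all genes were lower. In PMN-MDSC the smallest adjusted p belonged to Tnfaip3, the NF-κB feedback inhibitor, at 5.32 ± 0.21 (SE, adjusted p = 3.54e-07), and to the orphan nuclear receptor genes Nr4a3 and Nr4a2, which passed the filter on low counts only through the tumor libraries. Nr4a3 stood at 7.78 ± 0.39 (SE, adjusted p = 9.03e-07), with 6 to 23 counts in a spleen library. Nr4a2, with 1 to 5 counts in a spleen library, held 0.339 to 1.33 CPM in spleen and 96.4 to 299 in tumor. In M-MDSC they were Ppp1r15a, a stress-induced phosphatase subunit gene, at 4.73 ± 0.17 (SE, adjusted p = 1.85e-08), Gadd45b, an activator of MAP kinase signaling, at 4.204 ± 0.18 (SE, adjusted p = 2.44e-08), and the antiproliferative gene Btg2 at 3.71 ± 0.16 (SE, adjusted p = 2.8e-08).

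After poly(I:C), 12 of 38 of these genes were called higher in tumor PMN-MDSC and 4 of 36 in tumor M-MDSC, with 0 and 0 lower. Over all genes 8.39% were higher and 4.62% lower in PMN-MDSC, and 0.188% and 0% in M-MDSC. The list medians were 1.91 and 1.83. The smallest adjusted p in PMN-MDSC belonged to Nr4a3, Klf4, a zinc-finger factor gene of the monocyte lineage, and the phosphatase gene Dusp2, and in M-MDSC to Egr2, a relative of Egr1, Nr4a3 and Nr4a2. All of these passed the filter only through tumor. Nr4a3 went from 0.640 to 0.743 CPM in spleen PMN-MDSC to 304 to 551 in tumor and Klf4 from 0 to 0.743 to 73.2 to 151, with at most 2 counts of either in a spleen library. Dusp2 stood at 4.81 ± 0.39 (SE, adjusted p = 0.000127), from 5 to 9 counts in spleen, and Egr2 in M-MDSC at 4.79 ± 0.35 (SE, adjusted p = 0.000632), from 4 to 12. In M-MDSC Nr4a3 held 0.338 to 2.65 CPM in spleen and 171 to 350.4 in tumor, and Nr4a2 0.291 to 1.77 and 36.8 to 47.5.

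The list of 32 other heat shock and chaperone genes was called only as higher in tumor between the organs. In untreated mice 7 of 26 were higher in tumor PMN-MDSC (median 1.46) and 2 of 26 in tumor M-MDSC (median 0.67), with 0 lower in either. After poly(I:C) the counts were 10 of 25 and 0 of 26. The shares of all genes called higher, given above, were also larger in PMN-MDSC, at 9.16 and 6.35% in untreated and 8.39 and 0.188% in treated mice. PMN-MDSC had Hsp90aa1, the inducible HSP90, at 2.53 ± 0.29 (SE, adjusted p = 6.04e-05), the HSP70 co-chaperone gene Dnaja1 at 1.92 ± 0.22 (SE, adjusted p = 6.2e-05) and the mitochondrial HSP70 gene Hspa9 at 2.15 ± 0.26 (SE, adjusted p = 7.91e-05). In M-MDSC the called genes were Dnajb1, the cytosolic HSP40 induced with HSP70, at 1.71 ± 0.21 (SE, adjusted p = 7.47e-05) and Dnaja1 at 2.16 ± 0.31 (SE, adjusted p = 0.000345). With treatment, Hsph1, an HSP110 nucleotide exchange factor gene, had the smallest adjusted p in PMN-MDSC, with 1.08 to 2.23 CPM in spleen (2 to 6 counts) and 147 to 228 in tumor, through which alone it passed the filter. Hsp90aa1 was higher by 3.51 ± 0.24 (SE, adjusted p = 8.55e-05) and Hspa9, also past the filter only through tumor with 20 to 25 counts in spleen, by 3.64 ± 0.29 (SE, adjusted p = 0.000127).

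Other cell types moved along with the organ. The epithelial tumor-cell list (6 genes, with keratins and Epcam) summed to 126 to 765 CPM in PMN-MDSC and 102 to 332 in M-MDSC of untreated tumors, against 16.3 to 33.4 and 6.86 to 13.7 in spleen and 4937 to 6701 in bulk tumor. Krt8 and Krt19 were at 0 in PMN-MDSC of untreated spleens. The fibroblast list (7 genes) summed to 28.4 to 50.4 CPM in tumor PMN-MDSC, 1.26 to 33.6 in tumor M-MDSC, 2.37 to 9.29 and 3.25 to 5.48 in the same cells of spleen and 863 to 1119.9 in bulk. The erythroid list (6 genes) went the other way, with 59.3 to 175 CPM in spleen PMN-MDSC and 0 to 16.8 in tumor. Platelet markers summed to 4.74 to 6.97 CPM in spleen and 39.6 to 69.7 in tumor PMN-MDSC, and to 0.476 to 2.48 and 8.83 to 23.6 in M-MDSC. Acinar markers summed to 1.36 to 4.48 and 14.2 to 93.2 CPM in PMN-MDSC and to 0 to 0.414 and 5.39 to 15.3 in M-MDSC. B-cell markers were lower in tumor, at 35.4 to 79.3 CPM in spleen and 3.64 to 9.21 in tumor PMN-MDSC and 15.8 to 70.7 and 1.26 to 7.15 in M-MDSC. T-cell markers summed to 9.96 to 17.02 and 20.9 to 26.01 CPM in PMN-MDSC and to 1.39 to 4.22 and 4.95 to 13.6 in M-MDSC. In treated PMN-MDSC of spleen and tumor, neutrophil markers summed to 30754 to 60033 and 4089 to 10349 CPM, and monocyte and macrophage markers to 916 to 1290 and 8016 to 19682. Platelet markers there summed to 2.56 to 8.91 and 62.4 to 148 CPM, and T-cell markers to 1.08 to 3.71 and 12.9 to 54.3. In treated M-MDSC monocyte and macrophage markers summed to 2601 to 3254 and 7739 to 29348 CPM. The part of these markers in the higher tumor levels was not tested.

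PMN-MDSC and M-MDSC were then compared within each organ of untreated mice. In spleen 6 of the 9 members tested were higher in PMN-MDSC, beside 14.3% of all genes, and in tumor 0 of 10 were called in either direction, beside 1.65%. Dusp1 had the largest spleen difference, 35.0-fold, at 5.13 ± 0.54 (SE, adjusted p = 4.08e-05). Fos was higher by 3.35 ± 0.50 (SE, adjusted p = 0.000344), Egr1 by 2.703 ± 0.45 (SE, adjusted p = 0.000676), Junb by 2.67 ± 0.26 (SE, adjusted p = 2.74e-05), Ier2 by 2.12 ± 0.22 (SE, adjusted p = 3.96e-05) and Jun by 1.71 ± 0.24 (SE, adjusted p = 0.000236). Fosb, which passed the filter only through PMN-MDSC, missed the threshold at 2.85 ± 0.55 (SE, adjusted p = 0.00142). Atf3 did not pass, at 0.23 ± 0.24 (SE, adjusted p = 0.428), nor did Hspa1b, at -1.11 ± 0.84 (SE, adjusted p = 0.267), and Hspa1a was too low to test. With libraries scaled by totals alone the Atf3 estimate turned to -0.15. That scaling also moved the calls over all genes from 1228 higher and 765 lower to 822 and 1547, and the median of all genes by -0.38. In the same spleen libraries T-cell markers summed to 9.96 to 17.02 CPM in PMN-MDSC and 1.39 to 4.22 in M-MDSC, epithelial markers to 16.3 to 33.4 and 6.86 to 13.7 and platelet markers to 4.74 to 6.97 and 0.476 to 2.48. Their part in the differences was not tested.

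Leaving out 1 library at a time gave 3 to 7 called members. The count was 3 without M-MDSC library 1, M-MDSC library 4 or PMN-MDSC library 4. Egr1 lost its call in 7 of the 8 omissions and Fos and Jun in 4 each, and Dusp1, Junb and Ier2 were the genes that kept a call in every omission. Within the tumor, Egr1 at 1.09 ± 0.22 (SE, adjusted p = 0.0053) and Atf3 at -0.83 ± 0.23 (SE, adjusted p = 0.0311) had the smallest adjusted p, Egr1 higher in PMN-MDSC and Atf3 in M-MDSC. An unadjusted p below 0.05 was reached by 2 of 10 members and 27.7% of all genes, and DESeq2 called 1, Egr1 (adjusted p = 2.95e-05), beside 5.1% of all genes. Fos differed by -0.12 ± 0.21 and Dusp1 by 0.27 ± 0.19 between the cell types there.

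Whether the tumor-to-spleen change itself differed between the cell types was tested with an interaction term, added after these levels had been seen. All 8 immediate early members had a larger change in M-MDSC at an adjusted p below 0.05, a call reached by 37.3% of all genes in either direction. Fosb is among them with 13, 8, 7 and 3 counts in spleen M-MDSC, past the filter through the other groups. Dusp1 differed most, by a log2 difference of -4.83 ± 0.55 (SE, adjusted p = 1.44e-05), PMN-MDSC minus M-MDSC, then Fos by -3.43 ± 0.55 (SE, adjusted p = 0.000234), Fosb by -2.59 ± 0.65 (SE, adjusted p = 0.00571) and Junb by -2.20 ± 0.36 (SE, adjusted p = 0.000252). Jun differed by -1.95 ± 0.28 (SE, adjusted p = 9.43e-05), Ier2 by -1.79 ± 0.29 (SE, adjusted p = 0.000285), Egr1 by -1.57 ± 0.50 (SE, adjusted p = 0.022) and Atf3 by -1.02 ± 0.34 (SE, adjusted p = 0.0286). Neither HSP70 gene passed, with -1.04 ± 0.84 (SE, adjusted p = 0.347) for Hspa1a and 0.57 ± 1.003 (SE, adjusted p = 0.683) for Hspa1b. With scaling by totals alone 6 of the 8 stayed past the threshold and Egr1 (adjusted p = 0.0551) and Atf3 (adjusted p = 0.105) did not. The calls over all genes split 1640 higher to 1445 lower with TMM, 2572 to 947 with totals alone and 1303 to 1791 with RLE size factors, and the median of all genes moved by 0.31 and -0.16.

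The same test put 21 of 37 other immediate early genes on the side of M-MDSC and 1 on that of PMN-MDSC. Of the other heat shock genes 11 of 27 had the larger change in PMN-MDSC and 0 in M-MDSC. Over all genes 19.8% were called on the side of PMN-MDSC and 17.5% on that of M-MDSC. Jund at -2.86 ± 0.31 (SE, adjusted p = 9.11e-06), Btg1 at -2.29 ± 0.25 (SE, adjusted p = 1.06e-05) and Klf6 at -1.78 ± 0.21 (SE, adjusted p = 2.14e-05) led the first list, and the chaperonin gene Cct2 at 1.08 ± 0.19 (SE, adjusted p = 0.000591), the HSP70 co-chaperone gene Bag3 at 2.03 ± 0.39 (SE, adjusted p = 0.00101) and Hspa9 at 1.53 ± 0.30 (SE, adjusted p = 0.00116) led the second. In spleen 22 of 31 other immediate early genes were higher in PMN-MDSC and 0 lower, beside 14.3 and 8.92% of all genes, among them Btg2 at 2.45 ± 0.16 (SE, adjusted p = 2.99e-06), Btg1 at 2.59 ± 0.18 (SE, adjusted p = 4.69e-06) and Klf6 at 2.03 ± 0.15 (SE, adjusted p = 5.14e-06). Of the other heat shock genes 0 were higher there and 4 of 26 lower, with Cct2 at -1.29 ± 0.14 (SE, adjusted p = 4.92e-05), Bag3 at -2.01 ± 0.31 (SE, adjusted p = 0.000441) and the heat shock factor gene Hsf2, through M-MDSC alone past the filter, at -2.58 ± 0.44 (SE, adjusted p = 0.000697). These comparisons share their spleen and tumor libraries with the ones above.

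**Figure D3:**
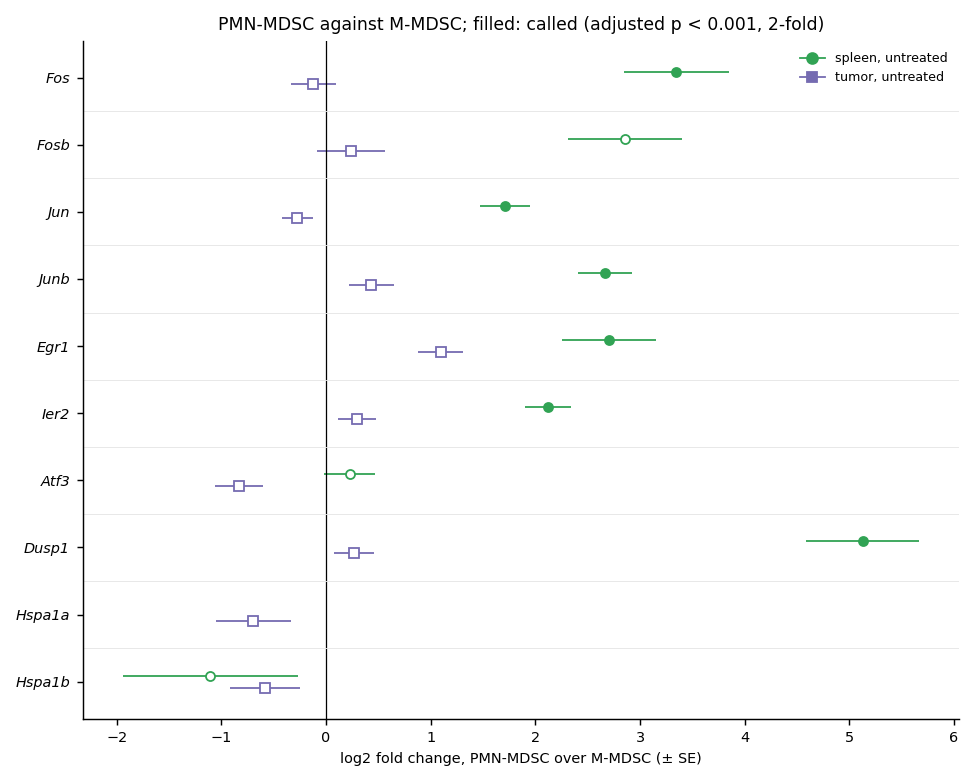
Log2 fold change, PMN-MDSC over M-MDSC, for untreated spleen (circles) and untreated tumor (squares), with bars of 1 SE on the horizontal axis and 1 line per gene. In spleen Fos, Jun, Junb, Egr1, Ier2 and Dusp1 are filled, which marks a call, and lie at 1.71 or more. In tumor no symbol is filled and all lie between -0.83 and 1.09.

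Sorted cells were next set against the unsorted tumor, both from untreated mice. All 10 members were higher in sorted PMN-MDSC than in bulk tumor, beside 21.2% of all genes, and all 10 in sorted M-MDSC, beside 19.6%. Fosb, Dusp1 and Hspa1a passed the filter on low counts only through the sorted cells. In PMN-MDSC the log2 fold change was 9.70 ± 0.37 (SE, adjusted p = 4.41e-09) for Fosb, 9.55 ± 0.29 (SE, adjusted p = 2.04e-09) for Dusp1, 7.28 ± 0.33 (SE, adjusted p = 8.38e-09) for Egr1 and 7.22 ± 0.32 (SE, adjusted p = 8.33e-09) for Fos. Hspa1b stood at 7.26 ± 0.45 (SE, adjusted p = 1e-07), Atf3 at 6.20 ± 0.29 (SE, adjusted p = 9.65e-09), Jun at 5.37 ± 0.25 (SE, adjusted p = 1.05e-08), Junb at 4.77 ± 0.22 (SE, adjusted p = 9.02e-09) and Ier2 at 2.80 ± 0.19 (SE, adjusted p = 1.54e-07). M-MDSC gave similar sizes, from 9.39 ± 0.40 (SE, adjusted p = 1.37e-08) for Fosb down to 2.44 ± 0.15 (SE, adjusted p = 8.74e-08) for Ier2, with 9.22 ± 0.34 (SE, adjusted p = 8.13e-09) for Dusp1, 7.27 ± 0.31 (SE, adjusted p = 1.3e-08) for Fos and 7.76 ± 0.51 (SE, adjusted p = 1.6e-07) for Hspa1b. With scaling by totals alone the split of all calls in PMN-MDSC went from 2362 higher and 2107 lower to 1954 and 2839, the median of all genes moved by -0.29, and all 10 members were still called.

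Hspa1a had 2 counts in the 4 bulk libraries together. Its CPM ratio was 2629.6 in tumor PMN-MDSC, with an exact 95% counting interval of 727 to 21734, and 3702 in tumor M-MDSC (1024 to 30593). Summed with Hspa1b, the log2 fold change was 7.43 in PMN-MDSC and 7.95 in M-MDSC.

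Bulk tumor holds the RNA of many cell types besides the sorted ones. Mean bulk levels were therefore expressed as a percent of the mean in sorted cells, beside the lineage markers of each gate. For the members this percent ranged from 0.0538 (Hspa1a) to 17.6 (Ier2) against tumor PMN-MDSC, with a median of 0.814. The 10 neutrophil markers ranged from 0 (Ly6g and Retnlg, at 0 in all bulk libraries) to 0.577, with a median of 0.317. The monocyte and macrophage markers, which tumor PMN-MDSC carried at higher summed levels than the neutrophil markers, ranged from 2.86 (Cd68) to 10.7 (Apoe), with a median of 4.45, and 7 of the 10 members lay below all of them. Against tumor M-MDSC the members ranged from 0.0321 to 20.9, with a median of 0.816, and the 10 monocyte and macrophage markers from 0.301 (Ly6c2) to 23.6 (Apoe), with a median of 5.96. Dusp1, Fosb and Hspa1a were at 0.184, 0.170 and 0.0321% of the M-MDSC level in bulk, below all 10 monocyte and macrophage markers. Fos was at 0.729% and Hspa1b at 0.528%, above Ly6c2 and below Ccr2 (1.41%) and the other 8. These percents are a description without a test, and handling and cell makeup cannot be told apart in them.

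**Figure D4:**
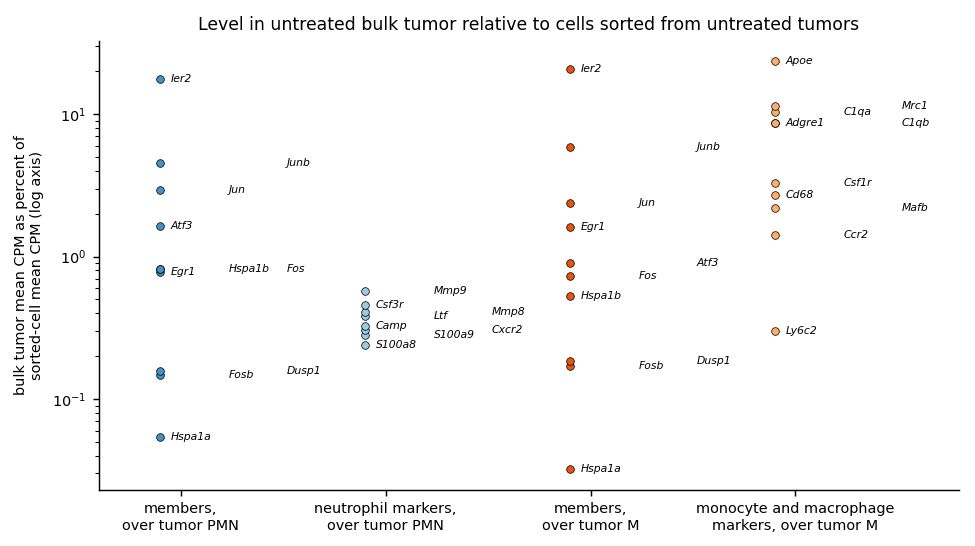
Mean CPM in bulk tumor as a percent of mean CPM in cells sorted from untreated tumors, on a log axis, for the members and for the lineage markers of each gate, 1 point per gene. Ly6g and Retnlg are at 0 in bulk and cannot be drawn. Against M-MDSC, most members lie below most monocyte and macrophage markers, and against PMN-MDSC the members spread to both sides of the neutrophil markers (the monocyte and macrophage markers of that gate are not drawn).

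Over all genes 18.9% were lower than in bulk in PMN-MDSC and 22.3% in M-MDSC, beside the 21.2 and 19.6% that were higher. Of the other immediate early genes 33 of 41 were higher in PMN-MDSC than in bulk and 2 lower (median 4.04), and 32 of 42 higher and 4 lower in M-MDSC (median 3.62). Nr4a1 at 8.85 ± 0.29 (SE, adjusted p = 2.04e-09), Tnfaip3 at 6.29 ± 0.23 (SE, adjusted p = 3.08e-09) and Dusp2 had the smallest adjusted p in PMN-MDSC, and Gadd45b at 6.58 ± 0.26 (SE, adjusted p = 9.39e-09), Nr4a1 at 8.70 ± 0.37 (SE, adjusted p = 1.29e-08) and Tnfaip3 at 5.77 ± 0.26 (SE, adjusted p = 1.58e-08) in M-MDSC. Dusp2, past the filter only through the sorted cells, held 0.113 to 0.801 CPM in bulk (1 to 7 counts) and 199 to 281 in PMN-MDSC. Of the other heat shock genes 3 of 28 were higher and 9 lower in PMN-MDSC (median -0.54), and 2 higher and 10 lower in M-MDSC (median -0.56), beside medians of -0.09 and -0.17 over all genes. Hmox1, the heme-degrading stress enzyme, was higher at 4.13 ± 0.21 (SE, adjusted p = 1.76e-08) in PMN-MDSC and 3.86 ± 0.22 (SE, adjusted p = 6.53e-08) in M-MDSC. Dnajb1 was higher in PMN-MDSC at 2.44 ± 0.19 (SE, adjusted p = 4.67e-07). Serpinh1, the collagen chaperone HSP47, was lower in both, with 68.0 to 141 CPM in bulk, 2.40 to 12.1 in PMN-MDSC and 0 to 4.72 in M-MDSC, and passed the filter only through bulk. Hspa9 was lower in M-MDSC at -2.52 ± 0.28 (SE, adjusted p = 9.56e-06). Bulk and sorted libraries differ in cell makeup as well as in handling.

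Spleen cells, which were sorted but did not go through the tumor dissociation step, overlapped bulk tumor for some members and not for others. Every PMN-MDSC library of spleen, treated or not, was above every bulk library for 6 of the 10 genes (Fos, Fosb, Jun, Junb, Ier2 and Dusp1), as for 24.7% of all genes, and every M-MDSC library for 5 (Jun, Junb, Ier2, Dusp1 and Hspa1a), as for 31.8%. Hspa1a there rests on as few as 2 counts in a spleen library against 0 or 1 in bulk. For Dusp1 the lowest spleen M-MDSC library held 11.1 CPM and the highest bulk library 3.49. For Fos the spleen M-MDSC libraries began at 17.6 CPM, inside the bulk range that ended at 23.7. Egr1 and Hspa1b overlapped bulk in both spleen cell types. Different tissues were set side by side here, so no test was made.

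Treatment with poly(I:C) left no member past the threshold in any of the 4 sorted populations by edgeR's quasi-likelihood test. Over all genes the same rule called 0.0413% in spleen PMN-MDSC, 0.241% in tumor PMN-MDSC, 2.47% in spleen M-MDSC and 0.012% in tumor M-MDSC, so in 3 of the 4 populations few genes of any kind passed. An unadjusted p below 0.05 was reached by 6 of 9 members tested in spleen PMN-MDSC (27.4% of all genes), 2 of 10 in tumor PMN-MDSC (18.2%), 2 of 8 in spleen M-MDSC (33.3%) and 3 of 10 in tumor M-MDSC (19.2%). DESeq2 called 3, 0, 1 and 0 members in the same order, beside 7.12, 2.32, 6.91 and 2.57% of all genes.

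In spleen PMN-MDSC all 9 members tested had lower estimates after treatment. At an adjusted p below 0.05 and 2-fold, Fos, Fosb and Atf3 were lower, where 4.97% of all genes were. Atf3 differed by -2.84 ± 0.45 (SE, adjusted p = 0.00756), from 47.8, 37.4, 23.7 and 37.9 CPM in untreated to 1.92, 6.68 and 3.24 in treated mice. Fosb differed by -2.31 ± 0.46 (SE, adjusted p = 0.018) and Fos by -1.35 ± 0.28 (SE, adjusted p = 0.0205), both without overlap of the groups, as for Atf3. Every treated library lay below every untreated one for 7 of the 9 members tested and 24.2% of all genes, although Fosb, Atf3 and Hspa1b passed the filter only through the untreated libraries. Egr1 stood at -1.49 ± 0.41 (SE, adjusted p = 0.0516) and Hspa1b at -2.49 ± 0.70 (SE, adjusted p = 0.0552). Hspa1a, too low to test, had 4 counts in 3 treated libraries and 100 in 4 untreated ones, a ratio of 0.0674 with an exact 95% counting interval of 0.0180 to 0.178, and 67 of those 100 came from 1 library. Summed, Hspa1a and Hspa1b gave -2.67 (adjusted p = 0.044). Dusp1 was at -0.04 ± 0.38 (SE, adjusted p = 0.964) and Jun at -0.16 ± 0.47 (SE, adjusted p = 0.86).

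Markers of several other cell types moved with treatment in the same spleen PMN-MDSC libraries. The erythroid list summed to 59.3 to 175 CPM in untreated and 0.360 to 7.04 in treated mice, and the dendritic list (6 genes) to 26.1 to 75.6 and 1.44 to 4.46 CPM, with Flt3 and Xcr1 at 0 after treatment. In spleen M-MDSC the erythroid sums were 28.3 to 60.5 and 0.675 to 3.16 CPM. Neutrophil markers summed to 20397 to 33107 and 30754 to 60033 CPM in spleen PMN-MDSC, and to 2680 to 6172 and 809 to 4056 in spleen M-MDSC. Endothelial markers summed to 28.5 to 75.9 and 10.8 to 15.2 CPM in spleen PMN-MDSC and to 29.5 to 39.3 and 131 to 295 in spleen M-MDSC, and epithelial markers to 16.3 to 33.4 and 2.52 to 9.28 CPM in spleen PMN-MDSC. T-cell markers summed to 9.96 to 17.02 CPM in untreated and 1.08 to 3.71 in treated spleen PMN-MDSC, and B-cell markers to 35.4 to 79.3 and 9.61 to 32.7, both without overlap. Mitochondrial genes held 2.63 to 5.27% of counts in untreated and 5.31 to 5.92% in treated spleen PMN-MDSC, and 17684 to 20072 and 14456 to 15692 genes had at least 1 count, both without overlap, in libraries of 2008010 to 3769395 and 1561674 to 2777637 counted fragments. The part of these shifts in the Fos, Fosb and Atf3 levels was not tested.

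Atf3 was also the member with the smallest adjusted p in spleen M-MDSC, at -1.44 ± 0.33 (SE, adjusted p = 0.0152), where 3.31% of all genes were lower at that rule, and in tumor M-MDSC, at -1.36 ± 0.35 (SE, adjusted p = 0.0694). All treated libraries lay below all untreated ones for 2 of 8 members in spleen M-MDSC, Atf3 and Ier2 (16.6% of all genes), and for 3 of 10 in tumor M-MDSC, Fos, Jun and Atf3 (7.05%). Jun stood at 0.86 ± 0.31 (SE, adjusted p = 0.0838) in spleen M-MDSC, and Fos at -0.18 ± 0.62 (SE, adjusted p = 0.865). In tumor M-MDSC 9 of 10 estimates were below 0, among them Fos at -0.72 ± 0.26 (SE, adjusted p = 0.169) and Fosb at -0.91 ± 0.34 (SE, adjusted p = 0.175), and Hspa1a was at 0.24 ± 0.45 (SE, adjusted p = 0.823). Tumor PMN-MDSC had 5 estimates on each side, from -0.72 ± 0.29 (SE, adjusted p = 0.222) for Fosb to 0.51 ± 0.47 (SE, adjusted p = 0.614) for Egr1, with Fos at 0.10 ± 0.29 (SE, adjusted p = 0.897) and Hspa1b at 0.16 ± 0.27 (SE, adjusted p = 0.8). Dendritic markers summed to 14.4 to 32.4 CPM in untreated and 4.63 to 10.1 in treated tumor M-MDSC and to 20.4 to 37.0 and 2.58 to 12.8 in tumor PMN-MDSC. Endothelial markers summed to 20.2 to 44.5 and 75.8 to 160.0 CPM in tumor M-MDSC, and the part of these shifts in the estimates was not tested. The standard errors of the members ran from 0.19 to 0.47 in tumor PMN-MDSC and from 0.20 to 0.45 in tumor M-MDSC on the log2 scale. Estimates well above that size also missed the threshold, such as Atf3 at -1.36 ± 0.35 in tumor M-MDSC. Such differences could not be resolved with these libraries, and an uncalled gene may still have changed.

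**Figure D5:**
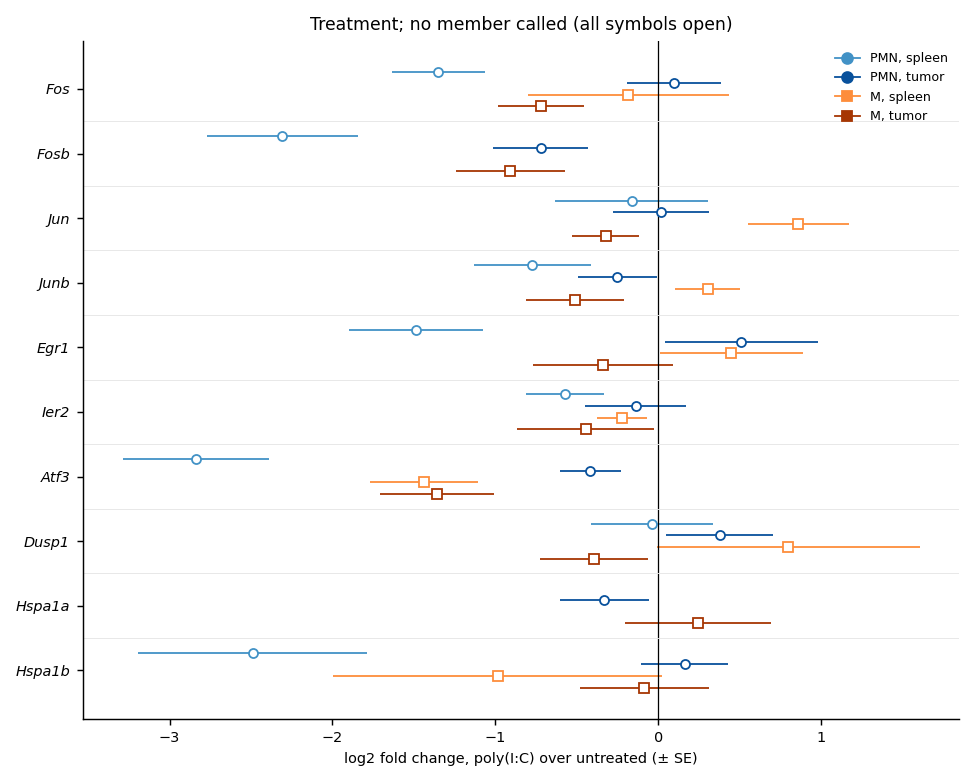
Log2 fold change, poly(I:C) over untreated, on the horizontal axis for each gene in the 4 sorted populations, with bars of 1 SE. All symbols are open because no gene passed adjusted p below 0.001 and 2-fold. Spleen PMN-MDSC lie farthest to the left for Fos, Fosb, Egr1, Atf3 and Hspa1b, and the tumor groups lie close to 0 for most genes.

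Whether the response to treatment differed between tumor and spleen was tested with an interaction term. In PMN-MDSC 2 of 10 members passed an adjusted p of 0.05, Atf3 with a log2 difference of 2.43 ± 0.44 (SE, adjusted p = 0.0103) and Hspa1b with 2.66 ± 0.69 (SE, adjusted p = 0.0461), tumor minus spleen, beside 3.5% of all genes. Atf3, with 3, 18 and 9 counts in treated spleen PMN-MDSC, kept its call under every alternative tried. Hspa1b, which had 4, 5 and 14 counts in treated spleen PMN-MDSC, lost it under 14 of 21, among them a single fit over 9 groups (adjusted p = 0.172). Fos at 1.49 ± 0.44 (SE, adjusted p = 0.0748) and Egr1 at 2.03 ± 0.70 (SE, adjusted p = 0.137) did not pass. In M-MDSC 0 of 10 passed, beside 0.79% of all genes, with 2 at an unadjusted p below 0.05 (14.2% of all genes) and 0 called by DESeq2 (3.52%). The calls over all genes there split 20 higher to 49 lower, and 31 to 30 with scaling by totals alone.

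Among the other immediate early genes 1 of 30 was called after treatment in spleen M-MDSC, Nfkbia, the NF-κB inhibitor gene, higher by 1.38 ± 0.16 (SE, adjusted p = 0.000438), where 1.82% of all genes were called higher (at an adjusted p below 0.05 and 2-fold, 8 were higher and 1 lower, beside 4.84 and 3.31% of all genes), and 0 in the other 3 populations, where the medians lay between -0.68 and -0.14. At the 0.05 rule 2 of 30 were higher and 2 lower in spleen PMN-MDSC, beside 4.71 and 4.97% of all genes. In tumor PMN-MDSC 0 of 38 were higher and 2 lower (1.85 and 0.831%), and in tumor M-MDSC 0 of 39 were higher and 2 lower (1.69 and 0.945%). Of the other heat shock genes 0 were called in the 4 populations, with a median of -0.72 in spleen PMN-MDSC, where 2 of 22 were lower at an adjusted p below 0.05 and 2-fold, beside 4.97% of all genes. In the interaction of PMN-MDSC 1 of 38 other immediate early genes was called, Klf4, and 2 of 26 other heat shock genes, Bag3 and Hspa9 at 1.48 ± 0.39 (SE, adjusted p = 0.0464), beside 3.5% of all genes. Treated spleen libraries held 0 to 2 counts of Klf4, 1 to 5 of Bag3 and 20 to 25 of Hspa9, so all 3 had a mean under 25 there. Klf4 held 10.8 to 56.2 CPM in untreated and 0 to 0.743 in treated spleen, and 55.8 to 272 and 73.2 to 151 in tumor. Bag3 held 4.17 to 12.7 and 0.640 to 1.80 CPM in spleen, and 33.6 to 52.2 and 30.6 to 65.2 in tumor. In that of M-MDSC 5 of 37 other immediate early genes were lower in tumor relative to spleen, beside 0.561% of all genes, led by Trib1 at -2.65 ± 0.47 (SE, adjusted p = 0.0244), Gadd45b at -2.37 ± 0.45 (SE, adjusted p = 0.0323) and Maff. Maff, with 0 to 4 counts in untreated spleen libraries, held 0 to 1.58 CPM in untreated and 3.54 to 10.5 in treated spleen M-MDSC, and 41.1 to 82.4 and 18.6 to 50.1 in tumor.

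Genes that act upstream of the members (17 genes for SRF and its partners, CREB factors and MAP kinases) were compared in the same way. In untreated tumor PMN-MDSC 2 of 17 were higher than in spleen and 2 lower, beside 21.7% of all genes called in either direction, and in M-MDSC 1 and 0, beside 8.6%. Crem, a CREB family gene that is itself inducible, was higher at 3.81 ± 0.27 (SE, adjusted p = 4.02e-06) in PMN-MDSC and 3.93 ± 0.34 (SE, adjusted p = 4.88e-06) in M-MDSC, past the filter only through tumor, and Mapk14, which encodes the stress kinase p38α, was lower in PMN-MDSC at -1.92 ± 0.21 (SE, adjusted p = 4.14e-05). Mrtfa, an SRF partner gene, was lower in PMN-MDSC as well, at -1.85 ± 0.18 (SE, adjusted p = 2.58e-05). Of the 17 genes 10 were higher and 0 lower in PMN-MDSC than in bulk tumor, and 10 higher and 1 lower in M-MDSC, where 21.2 and 19.6% of all genes were higher. Map3k8, an activating kinase of the ERK pathway, was higher at 4.75 ± 0.33 (SE, adjusted p = 1.54e-07) and 4.24 ± 0.33 (SE, adjusted p = 5.29e-07). Crem, Mrtfa, Mapk14 and Map3k8 were named after their values had been seen. Treatment called 0 of the list in the 4 populations, also at an adjusted p below 0.05 and 2-fold.

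The spread within groups was then described library by library. Deviations from the group mean on the log2(CPM + 1) scale were correlated over the 30 sorted libraries, as a description without a p, since libraries share depth and cell makeup. Among the 28 pairs of immediate early genes Pearson's r ranged from -0.32 to 0.80 with a median of 0.30. The closest pair was Fos and Dusp1 at 0.80, then Fos and Fosb at 0.63, and Egr1 and Atf3 were farthest apart at -0.32. Hspa1a and Hspa1b gave 0.68, and they share much of their sequence. The 16 pairs across the 2 kinds had a median of -0.02 and reached at most 0.24.

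The libraries highest in immediate early genes were compared with those highest in HSP70. In tumor PMN-MDSC of untreated mice the library with the highest immediate early sum (11511 CPM) had an HSP70 sum of 1676 CPM, the second of 4, and the next library (11481 CPM, highest in 5 of 8 immediate early genes) had the lowest, 889.9 CPM. The treated tumor M-MDSC library that was lowest in 6 of 8 immediate early genes (sum 4826 CPM, companions 7311 and 7503) had the highest HSP70 sum, 3299.7 CPM. In spleen M-MDSC of untreated mice, 1 library led in 5 of 8 immediate early genes and another held most HSP70, 184 CPM against 6.21 to 50.5 in the rest. Treated spleen PMN-MDSC had both the highest immediate early sum (1829 CPM, companions 1056 and 1463) and the highest HSP70 sum (5.76 CPM, companions 3.84 and 1.86) in the same library. The library numbered 3 had the lowest HSP70 sum in all 4 sorted groups of untreated mice, at 10.2 CPM in spleen PMN-MDSC, 6.21 in spleen M-MDSC, 889.9 in tumor PMN-MDSC and 1146 in tumor M-MDSC. These numbers follow column order, and whether the 4 libraries came from the same mouse is not given by the column names.

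By the same measure over 8523 other genes whose mean count reached 25, the 5 most like Fos were Gpr55 (r = 0.80), Notch1 (r = 0.78), Flot1 (r = 0.71), Alox15 (r = 0.69) and Ksr1 (r = 0.68). The 5 most like the sum of Hspa1a and Hspa1b were Hsph1 (r = 0.74), Dnaja1 (r = 0.71), Fcna (r = 0.64), Acad9 (r = 0.64) and Stip1 (r = 0.62). Hsph1, Dnaja1 and Stip1 encode an HSP110, an HSP40 and the HSP70-HSP90 organizing protein, which are heat shock proteins or their partners. The 3 belong to the list of other heat shock genes, and none of the 5 genes most like Fos belongs to the list of other immediate early genes.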

How the data were processed

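Total RNA of sorted cells and of bulk tumor was sequenced with a stranded kit (SMARTer Stranded Total RNA-Seq v2 Pico) without molecular identifiers. Per the study's methods and the submitters' processing notes, the authors aligned reads to mm10 (GRCm38) with ContextMap and BWA and counted fragments per gene on the matching strand with featureCounts (Subread 1.4.6-p3). The deposited values are raw counts for 53379 genes in 35 libraries. Column names gave the group but no mouse number, so libraries are numbered in column order as names only. A library of 10 counts was left out, and 34 were used.

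From these counts, CPM was computed on library totals and FPKM on exon lengths of a GENCODE M21 annotation. Each comparison was fitted on its own libraries with edgeR 4.0.16 (TMM, robust quasi-likelihood, mean count of at least 25), with Benjamini-Hochberg adjustment over all genes tested. A call needed an adjusted p below 0.001 and a 2-fold change, and interactions an adjusted p below 0.05. The titles repeat the same numbers across groups, so libraries of different groups may come from the same mouse. They were treated as independent, and p-values measure only the spread between these libraries. Alternatives were DESeq2 1.42.0, RLE size factors, library totals, no filter, an adjusted p below 0.05, no robust estimates, 1 fit over 9 groups, both HSP70 genes summed, and each library left out in turn. Scripts were tested on simulated data. Named genes were all 10 members and, of the other immediate early and other heat shock lists, the 3 called genes with the smallest adjusted p in a comparison, plus the 5 genes most like Fos and the 5 most like the HSP70 sum. The members and lists were chosen with earlier results of these data known. Intervals of counts cover counting error only. Promoter sequences came from RefSeq (GRCm38.p6).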

Additional observations from a re-analysis of the deposited data

Results flagged for a closer look

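In 6 of 70 gene and group combinations with 4 libraries, 1 library stood far above the other 3 by Dixon's criterion, which chance meets in about 1 of 20. In spleen M-MDSC of untreated mice the same library stood apart for 3 genes, Fos at 108 CPM, with the other 3 at 21.9 to 34.3, Dusp1 at 66.9 CPM, with the other 3 at 18.8 to 19.5, and Atf3 at 55.3 CPM, with the other 3 at 34.0 to 36.9. Dusp1 in spleen M-MDSC of treated mice reached 135 CPM, with the other 3 at 11.1 to 32.3. Atf3 in tumor M-MDSC of untreated mice reached 1239 CPM, with the other 3 at 639.7 to 715, and Fosb in tumor PMN-MDSC of treated mice 802 CPM, with the other 3 at 449 to 495.

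The effect of poly(I:C) differed between tumor and spleen PMN-MDSC for Atf3, by a log2 difference of 2.43 ± 0.44 (SE, adjusted p = 0.0103), and for Hspa1b, by 2.66 ± 0.69 (SE, adjusted p = 0.0461), in edgeR's interaction test. The Hspa1b call was lost under 14 of 21 alternatives, most of them fits without 1 library.

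The tumor-to-spleen difference of untreated mice was smaller in PMN-MDSC than in M-MDSC for 8 genes, by a test added after the values were seen. That call was reached by 37.3% of all genes in either direction and by 17.5% in this one. Egr1 and Atf3 lost it with scaling by totals alone. The log2 differences, PMN-MDSC minus M-MDSC, were -4.83 for Dusp1, -3.43 for Fos, -2.59 for Fosb, which had 3 to 13 counts in spleen M-MDSC libraries, -2.20 for Junb, -1.95 for Jun, -1.79 for Ier2, -1.57 for Egr1 and -1.02 for Atf3.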

How the results depend on the processing

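The 10 calls against bulk tumor held under every alternative (9 of 9 where the HSP70 genes were summed), and those of untreated tumor against spleen stayed at 6 to 8 in PMN-MDSC and 7 to 10 in M-MDSC. Other counts of called members moved. For treatment in spleen PMN-MDSC, 0 became 3 with DESeq2, 6 without a filter, 3 at an adjusted p below 0.05 and 1 in the fit over 9 groups, and in spleen M-MDSC it became 1 with DESeq2 and 1 at 0.05. In tumor M-MDSC it became 1 without a filter. For tumor against spleen in treated M-MDSC, 1 became 9 with DESeq2, 0 with RLE size factors, 0 with library totals, 7 without a filter, 9 at 0.05, 9 in the fit over 9 groups and 0 to 2 with a library left out. In treated PMN-MDSC, 6 became 5 to 9 under the other settings and 4 to 6 with a library left out. For PMN-MDSC against M-MDSC, leaving out a library gave 3 to 7 in spleen, and in tumor 0 became 1 with DESeq2, without a filter and at 0.05. The treatment interaction went from 2 to 4 with DESeq2, 1 with RLE, 4 with totals, 5 without a filter, 1 over 9 groups and 1 to 2 with a library left out in PMN-MDSC, and from 0 to 2 without a filter in M-MDSC. The cause of these moves was not tested. Over all genes the alternative with most calls, dropping the filter unless stated, raised the calls for treatment from 3 to 789 in spleen PMN-MDSC, 20 to 314 in tumor PMN-MDSC, 218 to 719 in spleen M-MDSC (adjusted p below 0.05) and 1 to 449 in tumor M-MDSC. Between organs it raised them from 1727 to 3594 and 714 to 1483 in untreated and 1045 to 3545 and 17 to 861 in treated PMN-MDSC and M-MDSC. Between cell types they went from 1993 to 3905 in spleen and 126 to 579 in tumor (75 in the fit over 9 groups), against bulk from 4469 to 6985 and 4619 to 7193, and in the treatment interactions from 282 to 676 and 69 to 659.

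With library totals, 3 uncalled log2 estimates turned sign: Hspa1b for treatment in tumor M-MDSC (0.033), Ier2 between organs in untreated PMN-MDSC (0.063) and Atf3 between cell types in spleen (-0.15). Leaving out 1 library turned the sign of further uncalled log2 estimates, over these ranges. For treatment they were -1.10 to 0.14 for Jun and -0.30 to 0.27 for Dusp1 in spleen PMN-MDSC, -0.15 to 0.26 for Fos, -0.36 to 0.18 for Jun, -0.47 to 0.068 for Ier2 and -0.034 to 0.29 for Hspa1b in tumor PMN-MDSC, -0.74 to 0.54 for Fos, -0.28 to 1.48 for Dusp1 and -1.75 to 0.058 for Hspa1b in spleen M-MDSC and -0.89 to 0.055 for Egr1, -0.027 to 0.59 for Hspa1a and -0.36 to 0.12 for Hspa1b in tumor M-MDSC. Between organs in untreated PMN-MDSC the range was -0.25 to 0.11 for Ier2, and between cell types in tumor -0.28 to 0.013 for Fos. In the interactions they were -0.15 to 1.08 for Jun (treatment, PMN-MDSC), -1.27 to 0.050 for Fos, -0.52 to 0.22 for Ier2, -0.22 to 0.44 for Atf3 and -0.14 to 1.67 for Hspa1b (treatment, M-MDSC) and -0.58 to 1.05 for Hspa1b (organ by cell type).

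No paired analysis was possible because the columns carry no mouse number, and column order was not used to pair libraries.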
